A study of Mus musculus with 16 samples.

Results

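Replication-dependent histone genes are the gene copies that supply histones H1, H2A, H2B, H3 and H4 to newly replicated DNA. They were taken here as the protein-coding genes whose symbol starts with Hist1h, Hist2h, Hist3h or Hist4h in GENCODE mouse release 21 (Ensembl release 96, GRCm38), which gave 67 members among 21872 protein-coding genes with values. The 67 members are 6 genes for H1, 18 for H2A, 18 for H2B, 12 for H3 and 13 for H4, and 54 of them lie on chromosome 13, 10 on chromosome 3, 2 on chromosome 11 and 1 on chromosome 6. Values were examined in 16 lines of immortalised mouse embryonic fibroblasts (MEFs) of strain C57BL/6J. MEF-1 and MEF-2 are parental lines from E13.5 embryos that were each immortalised by passaging through crisis, and each gave 7 clonal lines, every one grown from a single sorted cell. The study gives MEF-1 as male and MEF-2 as female, so that sex and set cannot be told apart. No transgene or treatment is given for any line, all were harvested before they were confluent, and each has 1 library, so that a parental line stands without a replicate and the clonal lines of a set are separate clones of 1 parental line. Libraries were made from total RNA after removal of ribosomal RNA and not by selection of poly(A) tails, and the values are “regularised log” (rlog) values on the log2 scale, shrunken towards the average of each gene. How many reads each value rests on is not known. Of the fibroblast markers, Col1a1, Col1a2, Col3a1, Vim, Pdgfrb and Fn1 were at 14.16 or above in every clonal line, whereas Thy1 went as low as 2.72.

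Most genes end their mRNA with a poly(A) tail, but replication-dependent histone mRNA ends just after a short stem-loop in its 3′ untranslated region. The stem-loop is bound by SLBP, and the mRNA is made from genes gathered around NPAT and CASP8AP2, is cut with the help of U7 small nuclear RNA, and is degraded when DNA synthesis stops. The level of these mRNAs therefore follows the share of cells in S phase and the rate of DNA synthesis, and in bulk RNA fewer cells in S phase and less histone mRNA per cell cannot be told apart. Some members are also known to give polyadenylated mRNA in cells that no longer divide.

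The stem-loop was looked up in the annotated transcripts of each member, on the strand of the gene, as GGNNCTTTNNAGNNCC with a fully paired stem of 6 base pairs around a loop of 4 bases. It was found in 44 of the 67 members (65.7%) and in 8 of 21884 other protein-coding genes (0.0366%). One of the 8 is H2afx, the gene of the variant H2A.X. Others are H2bfm and Trim17, and Trim17 overlaps the member Hist3h2a on the same strand. The other 23 members have no match in their annotated transcripts, among them several, such as Hist1h2bl with a transcript of 381 bases for a coding sequence of 378, whose annotation stops near the stop codon. One stem-loop of each form is shown here with 5 bases on either side, because the forms separate H4 from the other classes. Capitals mark the stem-loop.
Hist1h2bh: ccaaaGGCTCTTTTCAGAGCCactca
Hist1h3e: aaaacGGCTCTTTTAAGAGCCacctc
Hist2h2ac: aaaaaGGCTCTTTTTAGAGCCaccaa
Hist1h4h: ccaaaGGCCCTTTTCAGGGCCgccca
Hist2h4: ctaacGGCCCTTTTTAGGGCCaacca
Hist1h4b: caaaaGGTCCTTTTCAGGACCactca
The first form was the most frequent, with 26 members of H1, H2A, H2B and H3. The second was found in 6 members and the third in Hist2h2ac alone. The H4 forms were found in 7, 2 and 2 members, and none of the 3 occurred outside H4, nor did an H4 gene carry a form of the other classes.

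Promoters were taken from RefSeq (GRCm38.p6) for the 62 members that matched, as the 250 bases before the start. On either strand, CCAAT was present in 82.3% of member promoters against 34.5% of 27025 promoters of the same length, TATAAA in 46.8% against 3504 of the 27025, and the octamer ATTTGCAT in 13 of 62 against 1.61%. The classes differed in what they held. CCAAT was found in all promoters of H1 (6), H2A (18) and H2B (16), in 8 of 10 of H3 and in 3 of 12 of H4. The octamer was found in 7 promoters of H2A and 6 of H2B and in none of the other classes. Promoters of H2A and H2B genes that start head to head can overlap, so that 1 site may count for both genes. Hist1h2ah and Hist1h2bk share their octamer in this way. Promoters of a member with a large difference between the sets (Hist1h3g), of the member with the highest average rlog value (Hist1h1c), and of an H2A and an H4 gene with high levels are shown to make this visible, with matches to these motifs on either strand in capitals.
Hist1h3g, plus strand, chr13:23535168-23535417: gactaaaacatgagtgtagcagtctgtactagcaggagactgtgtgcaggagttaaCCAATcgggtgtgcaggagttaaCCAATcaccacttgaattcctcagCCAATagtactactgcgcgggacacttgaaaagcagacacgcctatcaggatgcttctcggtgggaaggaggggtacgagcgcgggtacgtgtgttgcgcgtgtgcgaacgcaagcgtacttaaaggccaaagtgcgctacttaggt
Hist1h1c, plus strand, chr13:23738557-23738806: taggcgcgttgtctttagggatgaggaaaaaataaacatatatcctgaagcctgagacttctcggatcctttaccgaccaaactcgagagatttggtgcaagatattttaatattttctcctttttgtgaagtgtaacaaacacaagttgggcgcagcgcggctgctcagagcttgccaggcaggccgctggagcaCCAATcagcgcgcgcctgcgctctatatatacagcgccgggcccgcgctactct
Hist1h2ab, plus strand, chr13:23750838-23751087: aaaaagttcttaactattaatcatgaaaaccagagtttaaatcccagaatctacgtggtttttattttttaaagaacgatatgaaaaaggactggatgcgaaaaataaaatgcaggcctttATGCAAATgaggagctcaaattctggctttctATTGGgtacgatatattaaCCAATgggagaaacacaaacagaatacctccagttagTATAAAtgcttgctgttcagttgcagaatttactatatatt
Hist1h4h, plus strand, chr13:23530794-23531043: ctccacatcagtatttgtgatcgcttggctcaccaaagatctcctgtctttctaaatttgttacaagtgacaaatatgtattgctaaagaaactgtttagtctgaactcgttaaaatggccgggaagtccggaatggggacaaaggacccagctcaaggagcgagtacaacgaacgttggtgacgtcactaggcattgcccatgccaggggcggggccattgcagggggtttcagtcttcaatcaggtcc
The H2A promoter holds all of the motifs and the H4 promoter holds none of them. A match is a description of the letters and was not related to binding.

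The members were widely expressed in these fibroblasts. Hist1h2aa and Hist2h3c1 were listed at 0 in every line, although all 31-base words of Hist2h3c1 also occur in the overlapping transcript Gm20634, which averaged 10.54. Hist1h2ba was at −2.29 to −2.26 in the 16 lines and did not enter the statistics. The other 64 members averaged more than 0 and entered the statistics. Of the 67 members, 14 were in the highest of 5 expression groups of protein-coding genes, 33 in the next, 15 in the third, 2 in the second and 3 in the group without expression, which holds 30.1% of all protein-coding genes. To compare genes, the log2 of the transcript length in kb was taken from the average rlog value. On this scale the highest members of each class were Hist1h4m (14.14) and Hist1h4h (14.11) for H4, Hist1h1c (13.92) and Hist1h1e (12.86) for linker histone H1, Hist2h2aa2 (13.63) and Hist1h2ab (12.18) for H2A, Hist1h2bg (13.35) and Hist2h2bb (13.17) for H2B, and Hist2h3b (12.64) and Hist1h3i (12.22) for H3. The class medians ran from 10.03 for H2A to 12.91 for H4, and H3 had the narrowest range, from 10.23 to 12.64. Annotated lengths run from 312 to 7425 bases and many leave out untranslated sequence. With the coding length in their place Hist1h1c was highest of all (15.21) and the class medians ran from 10.55 for H2A to 13.54 for H4.

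Many members cannot be measured apart from each other. In 20 of the 67, at least 80% of the 31-base words of their transcripts also occur in another gene, and Hist1h2bq and Hist1h2br, which both encode H2B, share an identical transcript. Over the 14 clonal lines the values of Hist1h2bq and Hist1h2br moved in opposite directions (Pearson's r of the deviations from the set means −0.48). Hist1h2bq was at its lowest, 8.67, in MEF-1 clonal line 1, where Hist1h2br was at 10.62. Hist1h2br was at its lowest, 7.80, in line 7 of the same set, where Hist1h2bq was at 11.81. Their sum on the linear scale, returned to log2, was less spread in MEF-1 (SD 0.62) than either gene (1.26 and 1.05). It was at 10.95 and 10.91 in MEF-1 clonal lines 1 and 2, and between 12.02 and 12.58 in the MEF-2 clonal lines. Single values of such members are therefore uncertain.

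The members had a shared low level in 2 clonal lines. For each line the median over the 64 members of the value minus the gene's average over all 16 lines was taken. It was −1.36 and −1.39 in MEF-1 clonal lines 1 and 2. The other MEF-1 clonal lines were at −0.40 (line 3), −0.21 (line 4), 0.31 (line 5), 0.01 (line 6) and −0.02 (line 7), and the MEF-1 parental line was at 0.42. In MEF-2 the parental line was at 0.63, and the clonal lines had a lowest value of 0.01, a median of 0.32 and a highest value of 0.65. MEF-1 clonal lines 1 and 2 thus stood apart from all other lines, while MEF-1 clonal line 5 lay within the range of the MEF-2 clonal lines. In line 1, 60 of the 64 members were below their average, and in line 2, 62 of 64 were, with quartiles of −1.64 to −0.75 and −1.62 to −0.94. Line 1 held the lowest MEF-1 clonal value of 22 members and line 2 that of 36, while line 5 held the highest of 48. In MEF-2, line 7 held the highest value of 44 members and line 6 the lowest of 28. As these lines stand apart, results between the sets are also given without MEF-1 clonal lines 1 and 2.

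**Figure D1:**
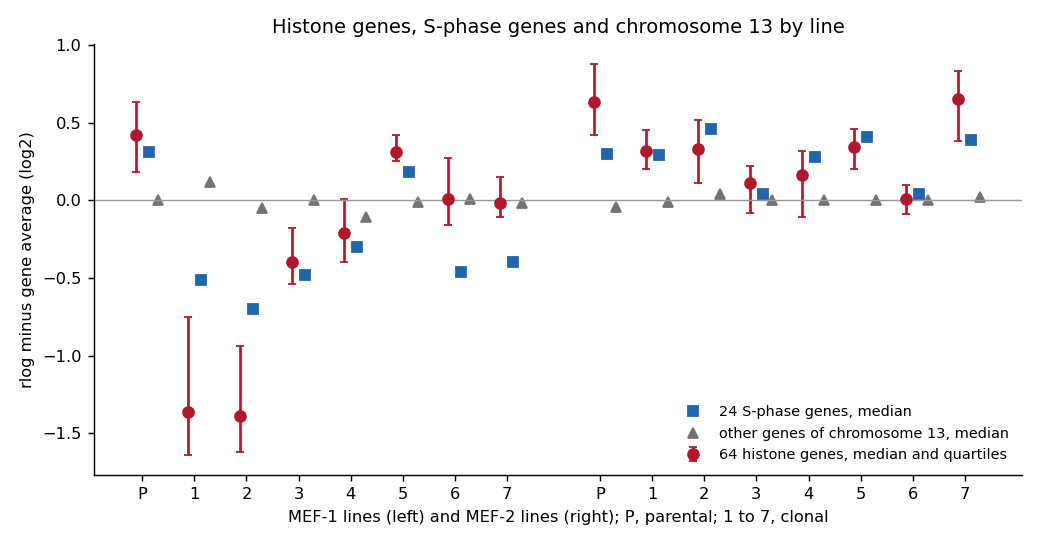
Median rlog deviation from the gene average (log2, y axis) in each of the 16 lines (x axis) for the 64 histone genes (circles, bars from the 25th to the 75th percentile), 24 S-phase genes (squares) and the other genes of chromosome 13 (triangles). The histone genes are lowest in MEF-1 clonal lines 1 and 2, at −1.36 and −1.39, where the other genes of chromosome 13 are at 0.12 and −0.05.

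The classes shared this pattern to different degrees. In MEF-1 clonal lines 1 and 2 the class medians were −1.67 and −1.72 for H2A, −1.62 and −1.55 for H3, −1.39 and −1.27 for H2B, −1.03 and −0.98 for H4, and −0.66 and −1.06 for H1. H2A and H3 were lowest in both lines, and H4 was less low than the other core histones. The 52 members on chromosome 13 in the fit did not follow the other genes of that chromosome, whose medians were 0.12 and −0.05 in the 2 lines. On chromosome 3, Hist2h3b was at 9.72 in line 2, while Hist2h2be, at 7.82 and 7.80 in the 2 lines, was not low, and the other genes of chromosome 3 had medians of 0.03 and −0.03.

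**Figure D2:**
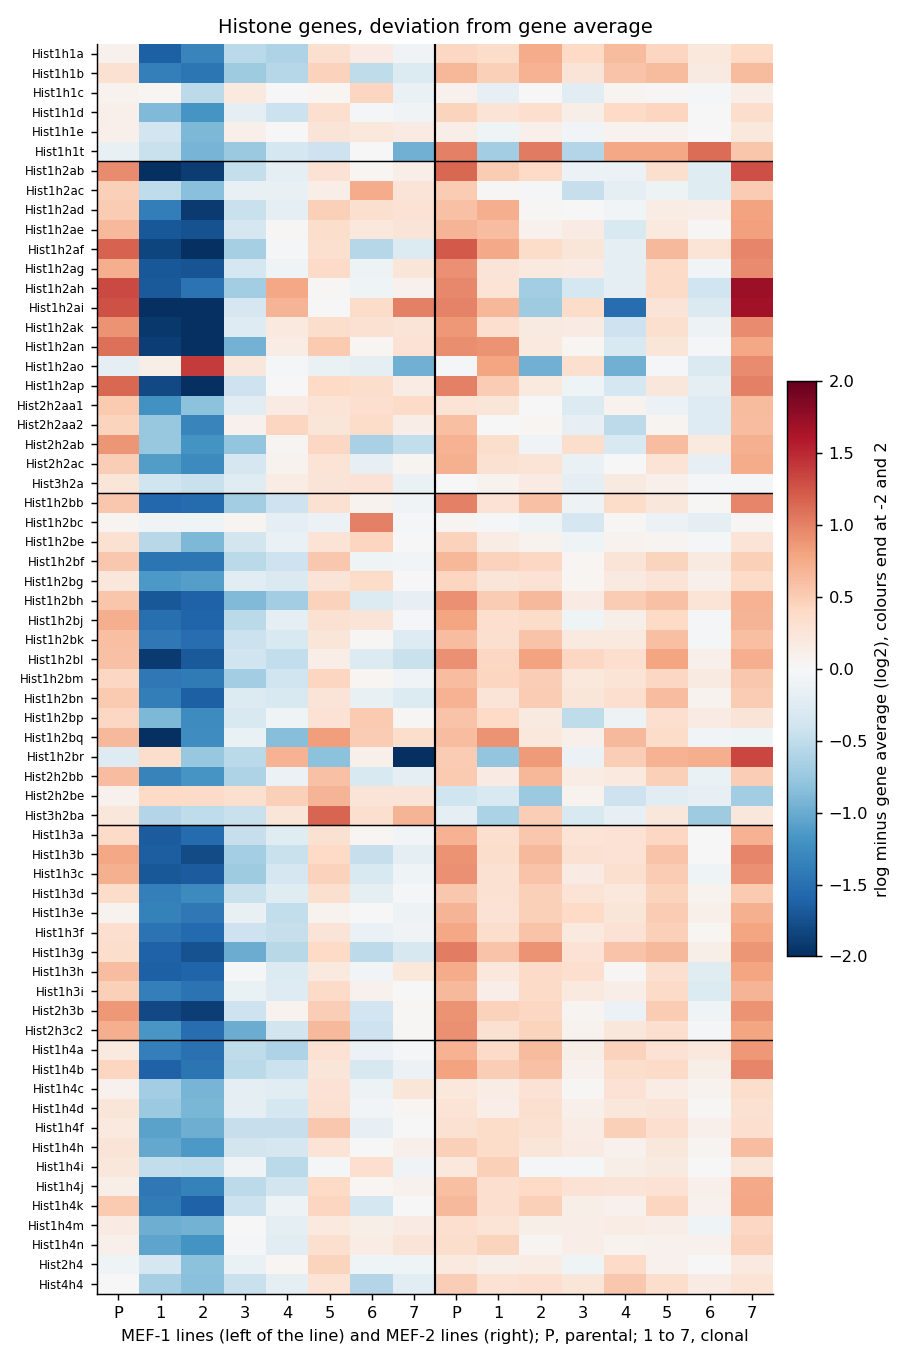
rlog value minus the gene's average over 16 lines (colour, log2, ending at −2 and 2) for the 64 histone genes (rows, grouped from top to bottom as H1, H2A, H2B, H3 and H4) in the 8 MEF-1 and 8 MEF-2 lines (columns). Columns 1 and 2 of MEF-1 are blue for 60 and 62 of the 64 genes, and Hist2h2be is among the few that are not.

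The spread among clones was accordingly larger in MEF-1. The median SD of the members was 0.69 over the 7 MEF-1 and 0.27 over the 7 MEF-2 clonal lines, against 0.20 and 0.16 for all 15285 protein-coding genes with an average above 0. In 61 of 64 members (95.3%) the SD was larger in MEF-1, as it was in 63.4% of all genes. Among genes with averages between 9 and 15, 47 of 52 members (90.4%) had an SD above the 90th percentile of all such genes in MEF-1, and 9 of 52 (17.3%) in MEF-2. Over all levels, 46 of the 64 members (71.9%) were above the 90th percentile of all genes for MEF-1 clones and 6 (9.38%) for MEF-2 clones. These shares are descriptions without a test, as the members move together. Without MEF-1 clonal lines 1 and 2 the median SD in MEF-1 was 0.32. The members with the largest SD all encode H2A or H2B and share sequence with other genes. In MEF-1 they were Hist1h2ai (3.59 to 6.85, SD 1.32), Hist1h2bq (8.67 to 12.30, SD 1.26) and Hist1h2ak (7.19 to 9.69, SD 1.10). In MEF-2 they were Hist1h2ai (4.32 to 7.53, SD 1.03), Hist1h2ah (4.90 to 7.30, SD 0.80) and Hist1h2ao (2.23 to 4.14, SD 0.77). Hist1h2ai and Hist1h2ak were lowest in MEF-1 clonal lines 1 and 2, whereas Hist1h2ao was highest in MEF-1 clonal line 2, at 4.60.

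**Figure D3:**
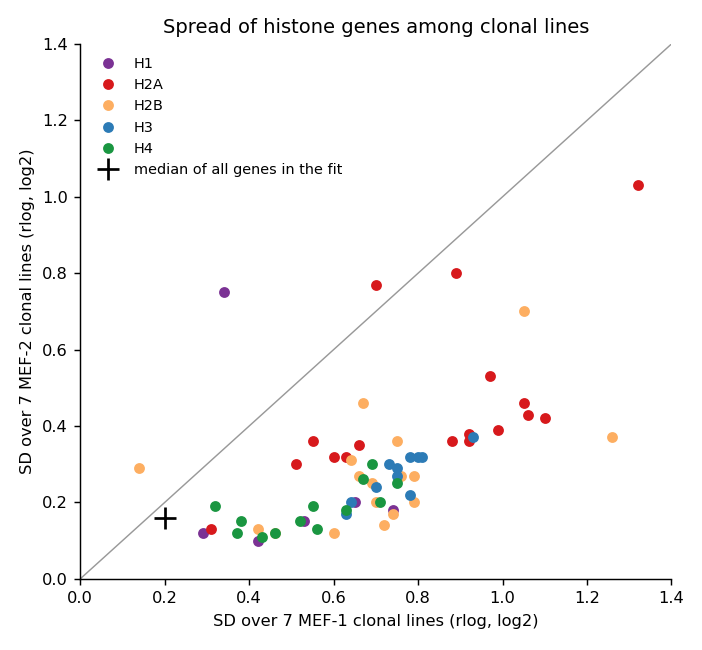
SD of the rlog values over the 7 MEF-1 clonal lines (x axis) and the 7 MEF-2 clonal lines (y axis), both on the log2 scale, for each of the 64 histone genes, coloured by class. Of the points, 61 lie below the diagonal of equal SD, and the cross at 0.20 and 0.16 marks the medians of all genes in the fit.

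The values of most members went together across clones. The deviations of a member from the mean of its set had a median Pearson's r of 0.95 with the median of the other members over the 14 clonal lines, and 45 of 64 were above 0.9. These values are descriptions and rest in part on MEF-1 clonal lines 1 and 2, since over the other 12 lines the median r was 0.78 and 15 members were above 0.9. Over those 12 lines 11 members were below 0.5. The 5 below 0.5 over the 14 lines were Hist1h2ao (−0.39), Hist1h2br (−0.16), Hist2h2be (−0.11), Hist1h1t (0.14), which encodes the testis form of H1, and Hist1h2bc (0.28).

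Of the 12 pairs of H2A and H2B genes that start head to head within 500 bases, the 11 in the fit had between 176 and 302 bases between their starts and a median r of 0.71. Hist1h2ag and Hist1h2bj were closest (r 0.95), with differences between the sets of 0.72 and 0.73. Hist2h2ac and Hist2h2be had opposite differences, 0.54 and −0.75, with 239 bases between their starts.

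The MEF-2 clonal lines were compared with the MEF-1 clonal lines to ask whether the sibling fibroblast lines differ in histone mRNA. In MEF-2, 34 of the 64 members (53.1%) were higher and 1 (1.56%), Hist2h2be, was lower, at an adjusted p under 0.05 in limma. Across all 15285 genes 27.5% were higher in MEF-2 and 28.6% lower. The share of members called in either direction was therefore near that of all genes, and it was the direction that differed. The median difference over the members was 0.72, against −0.004 over all genes. Of the differences, 59 of 64 were positive, against 7568 of 15285 over all genes. The parental lines, not part of this test, had line medians of 0.42 (MEF-1) and 0.63 (MEF-2). Those of the clonal lines had medians of −0.21 (MEF-1) and 0.32 (MEF-2). Without MEF-1 clonal lines 1 and 2, 26 members were higher and 1 lower (27 of 64, with 52.8% of all genes called). The share of members called was then below that of all genes, whose share by direction is not given here for this fit. The median difference was 0.31 over the members, against −0.01 over all genes.

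All of H3 and H4 had positive differences. H3 had a median of 0.88, with 9 of 11 members higher. H4 had a median of 0.61 and 9 of 13 higher. H2B followed with a median of 0.77, 10 of 17 higher and 1 lower, and H1 with 0.80 and 4 of 6 higher. In H2A the median was 0.64, but only 2 of 17 members passed the test, Hist1h2af and Hist2h2ab, beside a median SD among the MEF-1 clones of 0.89. Members with a stem-loop within 100 bases of the transcript end (22, median difference 0.70), those with one further from it (21, 0.52) and those with none in the annotation (21, 0.81) overlapped widely. The 15 members in the fit with AATAAA or ATTAAA in the last 40 bases of a transcript, a signal for polyadenylation, had a median of 0.61, and the other 49 had 0.74. The 19 members with a near-identical copy had a median of 0.71 and the 45 without one had 0.72.

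**Figure D4:**
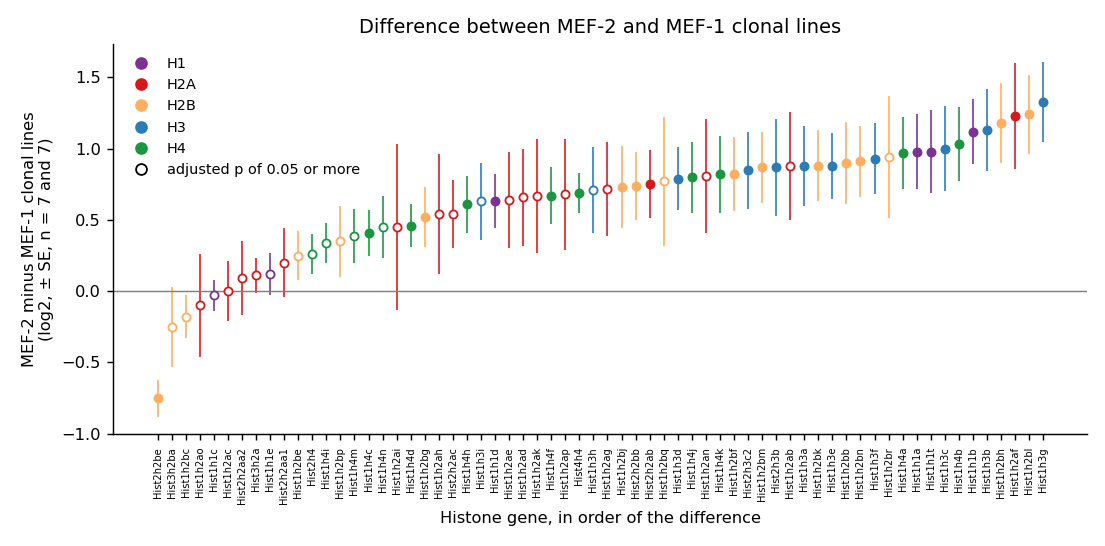
MEF-2 minus MEF-1 clonal lines (y axis, log2, mean difference ± SE from limma, n = 7 and 7) for each of the 64 histone genes in order of the difference (x axis), coloured by class, with open circles for an adjusted p of 0.05 or more. The differences run from −0.75 for Hist2h2be to 1.33 for Hist1h3g.

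The largest differences were found in H3, H2B and H2A genes of chromosome 13. Hist1h3g (23535422 to 23535951, plus strand) was at 10.54 in the MEF-1 parental line and at 8.44, 9.64 and 10.58 as the lowest, median and highest MEF-1 clonal value. In MEF-2 it was at 11.21 in the parental line and at 10.31, 10.76 and 11.09 in the clonal lines. The groups overlapped through MEF-1 clonal line 5 alone, and the difference was 1.33 ± 0.28 (SE, adjusted p = 0.000896). Hist1h2bl (21715763 to 21716143, minus strand), an H2B gene with 88.6% of its 31-base words in other genes, was at 10.22 in the MEF-1 parental line and at 7.73, 9.19 and 9.77 in the clonal lines. Its MEF-2 values were 10.55 in the parental line and 9.74, 10.06 and 10.45 in the clonal lines, a difference of 1.24 ± 0.28 (SE, adjusted p = 0.0016). Again only MEF-1 clonal line 5 reached the MEF-2 range.

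Hist1h2af (23533906 to 23534304, plus strand), an H2A gene, had MEF-1 clonal values of 6.28, 8.13 and 9.03 (lowest, median, highest) and MEF-2 clonal values of 8.52, 9.08 and 9.68, a difference of 1.23 ± 0.37 (SE, adjusted p = 0.0107). Its parental values, 9.89 in MEF-1 and 9.93 in MEF-2, were above every clonal line. Hist1h2bh (23541714 to 23543392, minus strand) had MEF-1 clonal values of 8.80, 9.81 and 10.96 and MEF-2 clonal values of 10.66, 11.01 and 11.19 (difference 1.18 ± 0.28, SE, adjusted p = 0.00232). Hist1h3b (23752267 to 23752886, plus strand) had 9.67, 10.99 and 11.86 in MEF-1 and 11.45, 11.80 and 12.43 in MEF-2 (difference 1.13 ± 0.29, SE, adjusted p = 0.00398). In each of these the MEF-1 and MEF-2 values overlapped, with MEF-1 clonal lines 1 and 2 at the bottom. Without those lines, all 5 genes passed the test with smaller differences, of 0.97 for Hist1h3g, 0.81 for Hist1h2bl, 0.69 for Hist1h2af, 0.79 for Hist1h2bh and 0.72 for Hist1h3b.

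Hist2h2be was the exception. This H2B gene (chromosome 3, 96221119 to 96223738, plus strand) has a transcript of 2620 bases with AATAAA or ATTAAA near its end and no match to the stem-loop, and only 2.8% of its 31-base words occur in other genes. It was at 7.50 in the MEF-1 parental line and at 7.67, 7.80 and 8.09 (lowest, median, highest) in the MEF-1 clonal lines, and at 7.02 in the MEF-2 parental line and 6.67, 7.11 and 7.48 in the MEF-2 clonal lines. The groups did not overlap, which was so for 2 of the 64 members (the other being Hist1h3e, higher in MEF-2) and for 25.9% of all genes in the fit. The difference was −0.75 ± 0.13 (SE, adjusted p = 0.000252), and MEF-1 clonal lines 1 and 2 were at 7.82 and 7.80, in the middle of their set. Without those lines it was −0.75 (adjusted p = 0.00136).

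**Figure D5:**
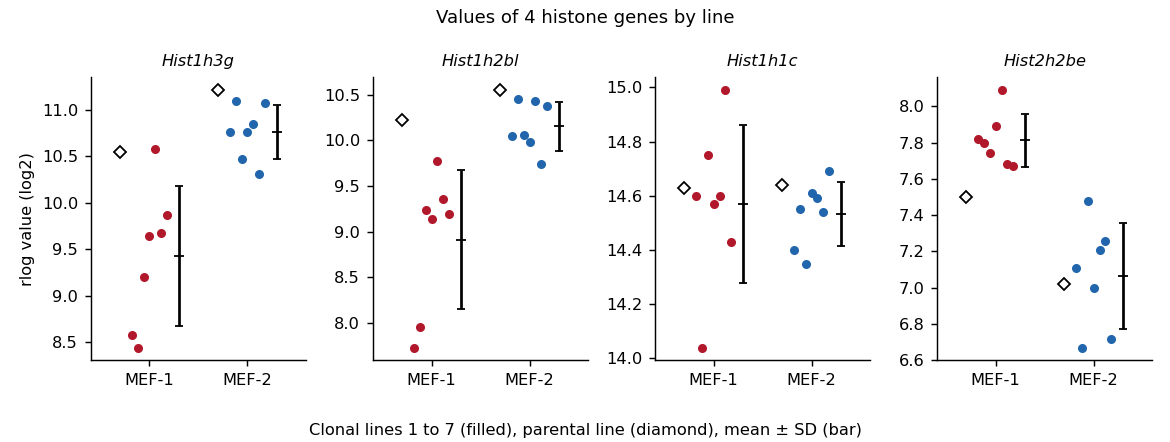
rlog values (y axis, log2, each panel with its own range that does not start at 0) of Hist1h3g, Hist1h2bl, Hist1h1c and Hist2h2be in the 7 MEF-1 and 7 MEF-2 clonal lines (filled circles, in the order of clone number from left to right), the parental lines (diamonds) and the clonal mean ± SD (bars). Hist1h3g and Hist1h2bl are higher in MEF-2, Hist2h2be is lower without overlap, and Hist1h1c differs by −0.03.

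The most abundant members of each class were mixed in their differences. Hist1h1c (chromosome 13, 23738808 to 23740367, plus strand), which encodes H1.2, was at 14.63 and 14.64 in the parental lines. Its clonal values were 14.04, 14.60 and 14.99 (lowest, median, highest) in MEF-1 and 14.35, 14.55 and 14.69 in MEF-2, with a difference of −0.03 ± 0.11 (SE, adjusted p = 0.816). MEF-1 clonal line 1 lay at the set median, 14.60, and line 2 held the lowest value. Hist1h1e, which encodes H1.4, differed by 0.12 ± 0.15 (SE, adjusted p = 0.505), with MEF-1 clonal lines 1 and 2 lowest at 13.42 and 12.91. Hist2h2aa2 differed by 0.09 (adjusted p = 0.794), but all of its 31-base words occur in Hist2h2aa1. Hist1h2ab differed by 0.88 and Hist1h3i by 0.63, each with an adjusted p just above the threshold (0.0593 and 0.0588). Hist1h4m differed by 0.39 (adjusted p = 0.0863), while Hist1h4h was higher in MEF-2 by 0.61 (adjusted p = 0.017), with clonal values of 11.88 to 13.29 in MEF-1 and 13.07 to 13.64 in MEF-2. Hist2h2bb (0.74, adjusted p = 0.0179), Hist2h3b (0.87, adjusted p = 0.0429) and Hist1h2bg (0.52, adjusted p = 0.0498) were higher in MEF-2 too. Of these, Hist1h2bg lost its call when any 1 of 11 lines was left out, and Hist2h3b with any 1 of 8. Without MEF-1 clonal lines 1 and 2, none of the last 3 passed the test.

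Clonal lines were also compared with their parental lines, to ask whether the levels differ after growth from a single cell. No member passed the test (0 of 64), with 0.68% of all genes called, in limma. Without adjustment, 11 members had p under 0.05, for which the share of all genes is not given here. The lowest adjusted p was 0.186, and no other setting of limma called a member. Of the differences, 62 of 64 were negative, against 7446 of 15285 over all genes. The median difference was −0.60 over the members, against 0.007 over all genes. It was −0.88 within MEF-1 and −0.33 within MEF-2, and −0.41 without MEF-1 clonal lines 1 and 2. All 7 clonal lines were below the parental line in 33 of 64 members in MEF-1 and in 19 in MEF-2. The share of all genes with this order is not given here, and each count rests on 1 parental library. With 1 parental line in each set, a shift of a parental line alone and a shift shared by its clones cannot be told apart. The change from parental to clonal lines was not called different between the sets for any member, with 0.275% of all genes called and 0 members at an unadjusted p under 0.05.

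The factors that make and process histone mRNA had smaller median differences between the sets than the histone genes. Of all genes, 27.5% were higher in MEF-2 and 28.6% lower, to be set beside the counts of this and the following lists. Among 11 genes of 3′ end processing, 6 were higher and 1 lower in MEF-2, with a median difference of 0.25. The largest difference was that of Cpsf2 (0.99, adjusted p = 8.99e-08), which encodes a subunit of the cleavage complex. Cpsf2 lies on chromosome 12, on which the lines differ in DNA coverage, and with each chromosome centred its difference was 0.40. Lsm10, a protein of the U7 particle, was lower by a little (−0.16, adjusted p = 0.0472) and lost its call when any 1 of 9 lines was left out. Lsm11, the other protein particular to the U7 particle, was higher by 0.61 (adjusted p = 7.63e-05), and by 0.60 with each chromosome centred. Slbp, whose product binds the stem-loop, was at 11.68 in the MEF-1 parental line and 11.44 in that of MEF-2, and its clonal values were 11.25, 11.52 and 11.73 (lowest, median, highest) in MEF-1 and 11.60, 11.67 and 11.74 in MEF-2. It differed by 0.12 ± 0.07 (SE, adjusted p = 0.137), but with each chromosome centred it was higher in MEF-2 by 0.21 (adjusted p = 0.0058). In MEF-1 clonal lines 1 and 2 it was at 11.52 and 11.25. Slbp was thus at its set median in line 1 and lowest in line 2.

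Of 6 genes of histone gene transcription, 4 were higher and 1 lower, with a median difference of 0.28. Npat was higher by 0.24 ± 0.05 (SE, adjusted p = 0.00115) and Casp8ap2 by 0.25 ± 0.06 (SE, adjusted p = 0.00268). Npat was at 12.46 and 12.23 in MEF-1 clonal lines 1 and 2, against 12.23 to 12.50 over the whole set, so that only line 2 was low. Ccne2, the cyclin that activates CDK2 at the start of S phase together with cyclin E1, had the largest difference (0.80, adjusted p = 0.00132), and Hinfp, a factor that binds H4 promoters, was lower (−0.32, adjusted p = 0.000605). In mRNA decay, Tut4, a terminal uridylyltransferase, was higher by 0.35 and the helicase gene Upf1 lower by 0.20 (median of the 4 genes 0.15, 2 higher and 1 lower).

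Of 11 genes for histone variants outside the family, 6 were higher in MEF-2 and none lower, with a median difference of 0.25. H2afy2, the gene of a macroH2A, had the largest difference (0.70, adjusted p = 3.36e-06). H2afx, whose transcript has the stem-loop, was at 10.55 and 10.70 in MEF-1 clonal lines 1 and 2, the lowest values of its set, against 12.15 and 12.08 in the parental lines. Its difference was 0.40 ± 0.18 (SE, adjusted p = 0.0736), and with each chromosome centred it was higher in MEF-2 by 0.46 (adjusted p = 0.0469). Of 12 histone chaperones, 7 were higher and none lower (median 0.27), led by Chaf1b, a subunit of the CAF-1 complex that deposits histones behind the replication fork (1.16, adjusted p = 1.9e-05).

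Genes of S phase shared the direction of the members between the sets, but not all of their pattern among the MEF-1 clonal lines. Of 24 genes for DNA replication and nucleotide supply, 22 were higher in MEF-2 and none lower, with a median difference of 0.61. Of all genes, 27.5% were higher in MEF-2. Without MEF-1 clonal lines 1 and 2, 19 of the 24 were higher, where 52.8% of all genes were called in either direction. The largest of the 24 differences was that of Rrm2 (1.86, adjusted p = 3.42e-06), a subunit of ribonucleotide reductase. Rrm2 is also on chromosome 12 and differed by 1.27 with each chromosome centred. The line medians of the S-phase genes were −0.51 and −0.70 in MEF-1 clonal lines 1 and 2, but also −0.48, −0.46 and −0.40 in lines 3, 6 and 7, where the histone medians were −0.40, 0.01 and −0.02. S-phase genes were therefore low in most MEF-1 clonal lines, while histone genes were far lower in lines 1 and 2. In MEF-2 the clonal values ran from 0.04 to 0.46, and only MEF-1 clonal line 5 (0.18) lay in that range, so that the S-phase level and the set were nearly the same split of lines. When the S-phase median was added to the fit, no member was higher in MEF-2, 1 was lower (Hist3h2ba, a low gene at 2.82 on average), where 28.5% of all genes were called in that fit. The median difference was −0.29, while between clonal and parental lines it was −0.05. As the S-phase level and the set nearly coincide, this fit cannot separate them. The part of S-phase activity in the histone differences was not tested.

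Other short RNAs without a poly(A) tail were read for comparison. Small nuclear RNA genes with an average above 5 had medians of −0.74 and −0.60 in MEF-1 clonal lines 1 and 2 and of −0.70 in the MEF-2 parental line, where the histone genes were at 0.63. Their clonal values had a median of −0.12 for MEF-1 and of 0.33 for MEF-2. The genes listed as short RNAs without a poly(A) tail, such as Rn7sk and Rpph1, had medians of −0.09 and −0.31 in the 2 lines. RNA fragmentation time was set by RNA quality in each library, its values are not given in the sources used here, and its part was not tested. The part of other cell types in the differences was not tested. The summed level of their markers, log2 of the linear sum over 8 genes, lay between 7.07 and 8.56 for MEF-1 clones and between 6.88 and 8.46 for MEF-2 clones, with the epithelial marker Cdh1 highest (7.44 on average), Myod1 and Sox10 at −1.59 or below in all clonal lines, and Alb (0.85 on average) lower in MEF-2 by 0.64. That of the 7 fibroblast markers lay between 22.22 and 22.71 and between 22.05 and 22.76, with Thy1 higher in MEF-2 (2.59) and Col3a1 lower (−0.60).

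The genes outside the histone family whose deviations over the 14 clonal lines were most like the median of the members were Pop1 (r 0.958), Urb2 (0.958), Rnps1 (0.955), Wdr46 (0.951) and Ncbp1 (0.946), out of all other genes in the fit. Pop1 encodes a subunit of the RNase P and RNase MRP particles, Rnps1 a protein of exon junctions and Ncbp1 the large subunit of the nuclear cap-binding complex. They lie on chromosomes 15, 8, 17, 17 and 4. Over the 12 lines without MEF-1 clonal lines 1 and 2, their r ran from 0.765 to 0.855.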

How the data were processed

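Total RNA of 16 MEF lines was sequenced. The authors trimmed the reads with Trim Galore 0.6.0, quantified transcripts with Salmon 1.5.2 (mm10, Ensembl release 102) and deposited rlog values from DESeq2 1.24.0, which are log2 values of counts divided by size factors and shrunken. How transcripts were summed to genes was not given in the sources used here. Every name in the table was matched to a line. The table holds no counts, so depth is unknown and no interval for counting error is given.

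Genes were matched by identifier to GENCODE release 21, and 15285 protein-coding genes with an average above 0 entered limma (trended prior, Benjamini-Hochberg adjusted p under 0.05), with 7 MEF-2 against 7 MEF-1 clonal lines, and with clonal against parental lines allowing for the set. Members and lists were chosen with earlier results of these data known. Named were the 2 members of each class with the highest level per length, the 5 largest differences past a test in each direction, the 3 largest SDs of each set, members at 0, the largest difference past the test in each direction of each list, Slbp, Npat and Casp8ap2, and the 5 most similar genes. Hist3h2ba, Hist1h2ba, Hist1h3e, H2afx, H2bfm, Trim17, Lsm11, Gm20634, Rn7sk and Rpph1 were named after the results were seen. So were members outlying in r and members given as examples of pairs, stem-loops or annotation. Clonal lines of a set are separate cultures of 1 parental line, and p-values measure their spread. Fits were tested on simulated data. Tools were limma 3.58.1 in R 4.3.3, and numpy 2.4.6, scipy 1.17.1, pandas 2.3.3 and matplotlib 3.10.9 in Python 3.11.15.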

Additional observations from a re-analysis of the deposited data

Results flagged for a closer look

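In 74 sets of 7 clonal lines (the named genes and the median over the members, in MEF-1 and in MEF-2), 2 held a line far from the others by Dixon's criterion, where chance gives about 1 in 20. Neither is a replication-dependent histone gene. H2afy2 was at 12.56 in MEF-2 clonal line 7, with the next value at 12.88, and Thy1 was at 3.43 in MEF-1 clonal line 4, with the next value at 2.99. The low values of the histone genes in MEF-1 clonal lines 1 and 2 do not meet this criterion, as each of these lines has the other close to it.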

How the results depend on the processing

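Between the sets, leaving out single lines gave 31 to 43 of 64 members past the test, with 52.5% to 56.7% of all genes called. The median differences were 0.55 to 0.85. Between clonal and parental lines, leaving out single lines gave 0 members, with 0.393% to 1.51% of all genes called. The medians there were −0.67 to −0.50. The median SD ran from 0.61 to 0.75 in MEF-1 and from 0.21 to 0.29 in MEF-2. Centring of lines or chromosomes, other priors, added parental lines and an exact permutation test gave 32 to 37 of 64 members, with 55.3% to 57.1% of all genes called. With all genes not at 0 tested, 31 of 64 members and 32.1% of all genes passed. Without near-identical members 29 of 45 passed, where 56.1% of all genes were called. Clone numbers do not pair the lines, as same-numbered clones are different cells and their deviations had r of −0.133 to 0.20. With clone number as a replicate block, 35 of 64 members passed the test, as without it, and 53.8% of all genes were called.

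Alternatives chosen after the data were seen changed more. With the S-phase median in the fit, 1 of 64 members passed the test between the sets, with 28.5% of all genes called. The median difference was −0.29 between the sets and −0.05 between clonal and parental lines. Named genes then turned to −0.24 (Hist1h2bg), −0.50 (Hist2h2bb), −0.64 (Hist2h3b), −0.18 (Hist1h4h), −0.25 (Hist1h3b), −0.11 (Hist1h2bh), −0.30 (Hist1h2af), −0.08 (Hist1h3g) and −0.14 (Ccne2), none past the test (adjusted p 0.129 to 0.843). Named members not called between the sets turned too, such as Hist1h2ab (−0.61), Hist1h3i (−0.49) and Hist2h2aa2 (−0.78). Hist1h2bl stayed positive, at 0.07 (adjusted p = 0.904), as did other members such as Hist1h3e (0.07) and Hist1h2br (0.79). Hist2h2be kept its direction, at −0.69, but did not pass the test (adjusted p = 0.0514). The S-phase level and the set nearly coincide, so these fits separate them poorly. Without MEF-1 clonal lines 1 and 2 the median SD in MEF-1 was 0.32. Shared sequence, unknown depth and 1 library per parental line limit single members.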
